A study of Mus musculus with 8 samples.

Results

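The chemokines are small secreted proteins that direct the movement of white blood cells, and the chemokine receptors are the proteins on those cells that read them. Here they were taken as every probe whose gene symbol on the array was Ccl, Cxcl, Ccr or Cxcr followed by a number. That rule used no measured value, though the members were chosen with earlier results of these data known. The rule found 63 probes for 49 genes, 33 ligands and 16 receptors, among 25697 probes for 18138 genes. They were measured with 1-colour Illumina BeadChips in total RNA from 8 colon tumor samples, in which the study asked what an active LXRα changes. The 4 VP16LXRa samples (replicates 5 to 8) carried the APCmin/+ allele together with VP16LXRa, a fusion of the VP16 activation domain to the nuclear receptor LXRα, which senses oxysterols. The 4 VP16 samples (replicates 1 to 4) carried APCmin/+ together with VP16 alone. The truncating Apc allele, which starts intestinal tumors, a mixed C57BL/6J and FVBN background and an age of 8 months were shared by both groups. The promoter behind the transgenes is not named in the labels, nor is it said that each tumor was taken from its own mouse. The p-values therefore reflect variation among these 8 samples, which may in part be technical.

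Chemokines bind membrane receptors that signal through inhibitory G proteins. CXC ligands with the residues ELR before their first cysteines draw neutrophils, the ligands of CXCR3 are induced by interferon and draw activated T cells, and a further set (CXCL13, CCL19, CCL21) is made constitutively by stromal cells and sets out the B and T cell zones of lymphoid tissue, which in the colon includes lymphoid patches and isolated follicles. LXR agonists are known to restrain inflammatory genes in macrophages, chemokine genes among them.

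Values are log2 intensities after background correction, quantile normalization and addition of an offset of 16, and a probe was called detected on an array where its detection p-value was under 0.01. The 8 arrays detected between 11469 and 12257 probes each, and 11875 probes for 9110 genes, detected on at least 4 arrays, were tested. Libraries differed more by tumor than by group. VP16LXRa replicate 5 and VP16 replicate 1 stood at -90.5 and -52.1 on the first principal component of the tested probes (55.4% of the variance), against 16.9 to 28.4 for the other 6 arrays. All 9 epithelial markers on the array were detected in every sample. Their mean log2 intensity, each gene centred on its mean, was -1.62 in VP16LXRa replicate 5, against -0.31 to 0.60 on the other 7 arrays. Cdx2 stood at 6.05 in VP16LXRa replicate 5 and 9.17 in VP16 replicate 1, against 11.68 to 12.16 elsewhere. Krt18 stood at 11.93 and 12.30 in these tumors, against 11.35 to 11.94. Of the 9 colonocyte markers 3 were not detected in VP16LXRa replicate 5. The colonocyte anion exchanger Slc26a3 stood at 4.35 in that sample and 6.10 in VP16 replicate 1, against 7.67 to 8.22 elsewhere. The mean centred log2 intensity of the colonocyte markers was -3.43 and -0.52 in these tumors, against 0.43 to 0.93 elsewhere. Cldn4 of the same list was instead highest in both (12.48 and 12.81). Each result below that rests on these arrays is given by sample.

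Of the 49 genes, 24 had a tested probe, beside 9110 of the 18138 genes on the whole array, a similar share. A further 8 members were detected on 1 to 3 arrays only and 17 were detected on none. Ligands were measured more often than receptors, with 21 of 33 ligands but 3 of 16 receptors tested. The ligands that no array detected were Ccl1, Ccl20, Ccl22, Ccl24, Ccl26, Cxcl3, Cxcl11, Cxcl15 and Cxcl17. The receptors that no array detected were Ccr1, Ccr1l1, Ccr2, Ccr3, Ccr4, Ccr8, Ccr9 and Ccr10. A probe below detection says only that its signal was not above that of the negative controls. Between 20 and 27 member genes were detected per VP16LXRa array and between 21 and 26 per VP16 array.

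No chemokine or receptor gene passed the test between VP16LXRa and VP16 tumors. Of the 31 tested member probes, 0 had a limma adjusted p under 0.05 over all 11875 probes (smallest adjusted p = 0.9999), beside 0.00842% of all tested probes. At an unadjusted p under 0.05 the count was again 0, beside 1.68% of all tested probes, and for 0 members did the groups not overlap, beside 1.28%. Leaving out both VP16LXRa replicate 5 and VP16 replicate 1 again gave 0 members past the adjusted threshold and 1 past the unadjusted one, beside 3.24% of all tested probes. The median log2 difference, VP16LXRa minus VP16, was 0.06 over the 31 probes and 0.00 over all tested probes (0.00206 before rounding), with 18 member probes higher and 13 lower. At the brightest probe of each gene 12 genes were higher and 12 lower.

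The members varied widely from tumor to tumor. The range over the 8 arrays had a median of 2.89 log2 units in the 31 member probes and 1.01 in all tested probes. It reached 4 units in 9 of the 31 member probes (29%) and in 2.3% of all tested probes. The median SD within a group was 0.96 for the members and 0.354 for all tested probes. For the 24 genes the interval of the group difference ran from -0.58 to 0.45 for Ccl27 to -3.14 to 4.29 for Cxcl1 (95%).

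**Figure D1:**
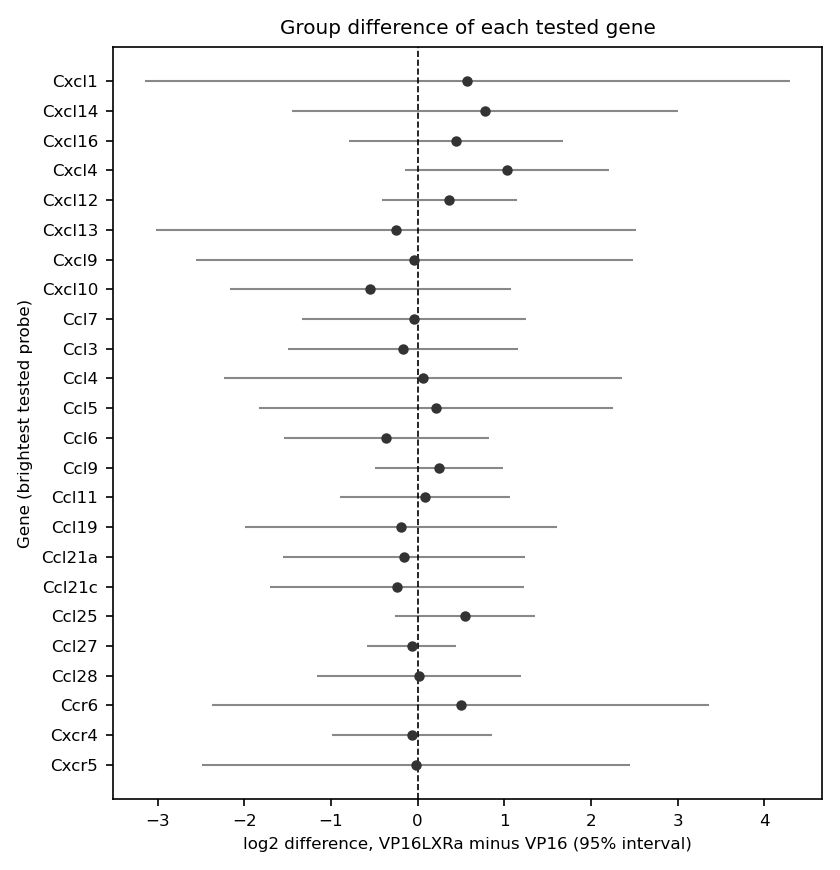
The log2 difference, VP16LXRa minus VP16, of each tested chemokine and receptor gene at its brightest probe (points, log2 units on the x axis) with its 95% interval (bars, limma, 4 arrays per group). Every interval includes 0, and those of Cxcl1 and Ccr6 are the widest.

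Cxcl4, the older name of platelet factor 4 (Pf4), which platelets and their precursors store, had the smallest p of the members. It stood at 8.55, 7.59, 6.98 and 6.80 in VP16LXRa replicates 5 to 8, against 7.67, 5.92, 6.56 and 5.66 in VP16 replicates 1 to 4. The groups overlapped through VP16 replicate 1 alone, which lay above 3 of the 4 VP16LXRa tumors. The mean was 7.48 ± 0.79 in VP16LXRa and 6.45 ± 0.89 in VP16 tumors (SD, n = 4 each), a log2 difference of 1.03 (SE 0.52, limma unadjusted p = 0.0794, adjusted p = 0.9999). It was the only member probe with a difference of at least 1 in the higher direction, beside 0.497% of all tested probes, and 0 members had one in the lower direction, beside 0.691%. Without VP16 replicate 1 the difference was 1.43 (limma unadjusted p = 0.0126). Without both that array and VP16LXRa replicate 5 it was 1.08 (limma unadjusted p = 0.00976), and neither was past the adjusted threshold. With VP16LXRa replicate 5, 6, 7 or 8 alone left out, the difference was 0.67, 0.989, 1.19 and 1.25. The limma unadjusted p was then 0.194, 0.138, 0.0726 and 0.0553. With VP16 replicate 2, 3 or 4 alone left out, the difference was 0.85, 1.06 and 0.762 (limma unadjusted p = 0.178, 0.114 and 0.196). Ppbp, the neighbouring platelet chemokine gene, was detected on 2 arrays, VP16LXRa replicate 5 (6.24) and VP16 replicate 1 (5.86). It was no member by its symbol.

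Among the neutrophil-attracting ELR ligands Cxcl1 varied most of all members, with a range of 6.38 log2 units. Cxcl1 stood at 11.20, 5.17, 5.53 and 7.07 in VP16LXRa replicates 5 to 8, against 10.70, 4.82, 5.48 and 5.68 in VP16 replicates 1 to 4. A single tumor of each group was high, and VP16LXRa replicate 8 lay above the rest. The group means were 7.24 ± 2.76 in VP16LXRa and 6.67 ± 2.71 in VP16 tumors (SD, n = 4 each), so that the difference of 0.57 (SE 1.63, limma unadjusted p = 0.73) was far inside the spread. It was -0.745 without VP16LXRa replicate 5, 1.92 without VP16 replicate 1 and 0.598 without both. Cxcl2, singled out after its values were seen, was detected in these 2 tumors only, at 8.61 in VP16LXRa replicate 5 and 7.91 in VP16 replicate 1, and stood between 4.44 and 4.80 on the other arrays. Cxcl3 and Cxcl15 were detected on no array, and Il8rb, the array's name for Cxcr2, a receptor of these ligands, was detected in VP16LXRa replicate 5 alone (5.87).

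Cxcl1 and Cxcl2 are neighbours on chromosome 5, and the 250 bases before the start site of each are shown because the pair was high in the same 2 tumors. The sequences are those of RefSeq in build GRCm38.p6, Cxcl1 at chr5:90890995-90891244 and Cxcl2 at chr5:90903649-90903898, both on the plus strand. They are written 5′ to 3′, with the stretch matching a form of the NF-kB site in capitals. That motif is 3 G, 2 A, any base, 2 T and 2 C, searched on both strands.
Cxcl1: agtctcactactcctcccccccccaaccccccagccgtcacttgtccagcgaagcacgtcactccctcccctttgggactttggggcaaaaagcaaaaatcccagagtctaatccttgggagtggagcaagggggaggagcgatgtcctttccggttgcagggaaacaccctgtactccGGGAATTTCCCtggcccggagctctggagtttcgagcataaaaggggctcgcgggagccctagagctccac
Cxcl2: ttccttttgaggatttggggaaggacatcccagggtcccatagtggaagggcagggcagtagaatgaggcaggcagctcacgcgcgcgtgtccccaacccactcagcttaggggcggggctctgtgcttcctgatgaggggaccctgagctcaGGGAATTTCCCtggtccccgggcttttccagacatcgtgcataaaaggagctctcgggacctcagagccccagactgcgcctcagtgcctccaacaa
Both windows held the same stretch of 11 bases, which matches the motif on both strands in overlapping positions. It began 71 bases before the start site in Cxcl1 and 97 in Cxcl2. Windows were found for 34 of the 49 member genes (38 windows), and 6 of the 38 held the motif on either strand (those of Ccl1, Ccr3, Cxcl1, Cxcl2, Cxcl3 and Cxcl10), beside 0.283% of all 32851 windows of that length. A match is a description of the letters only.

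Several neutrophil markers, though not all, were high with Cxcl1 and Cxcl2. The calprotectin genes S100a8 and S100a9, abundant in neutrophils, were detected on 3 arrays, at 12.93 and 11.85 in VP16LXRa replicate 5, 9.17 and 7.80 in VP16LXRa replicate 8 and 11.06 and 10.30 in VP16 replicate 1. Of the 18 neutrophil markers on the array, 13, 4, 4 and 7 were detected in VP16LXRa replicates 5 to 8, against 9, 3, 3 and 4 in VP16 replicates 1 to 4. Their summed intensity ran between 427 and 24651 in VP16LXRa tumors and between 253 and 6761 in VP16 tumors. All 6 tested neutrophil markers were higher in VP16LXRa tumors, beside 50.4% of all tested probes. Of these 6, Retnlg alone had an unadjusted p under 0.05, beside 1.68% of all tested probes (difference 2.11, limma unadjusted p = 0.0405, adjusted p = 0.9999). Ngp, Camp, Stfa1 and Stfa2 were detected in VP16LXRa replicate 5 alone, Retnlg stood lower in VP16 replicate 1 (7.17) than in VP16LXRa replicates 6 (7.62) and 8 (8.46), and Mpo, Stfa3, Mmp8, Itgam and Fpr1 were detected on no array. Il1b, an NF-kB-induced cytokine, stood at 11.48, 6.98, 7.39 and 7.85 in VP16LXRa replicates 5 to 8 and at 11.19, 6.52, 7.24 and 7.61 in VP16 replicates 1 to 4. Tnf, Icam1 and Cebpb of the same list were highest in the same 2 tumors. But Tnfaip3 was lowest in VP16 replicate 1 (7.45), and Nfkbiz was highest in VP16LXRa replicate 7 (10.59). The list's mean centred log2 intensity was 0.97 in VP16LXRa replicate 5 and 0.46 in VP16 replicate 1, against -0.52 to 0.06 elsewhere. Other lists were high in the same tumors. The mean centred log2 intensity of Wnt targets was 1.83 in VP16LXRa replicate 5 and 1.52 in VP16 replicate 1, against -0.86 to -0.04 in the other 6 tumors, and that of fibroblast markers was 0.91 and 0.99, against -1.01 to 0.04. The part of any of these lists in the Cxcl1 and Cxcl2 signal was not tested, and in total RNA of whole tumors more cells of a type and more RNA per cell cannot be told apart.

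**Figure D2:**
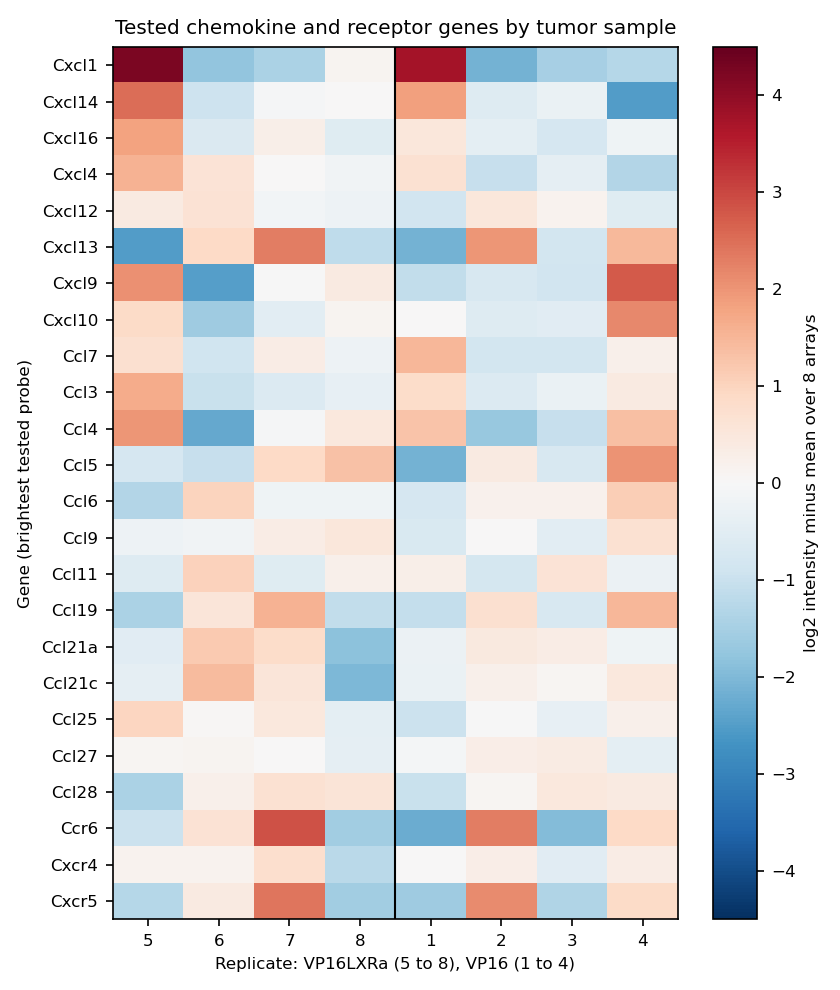
The 24 tested genes (rows, brightest probe) in each tumor (columns, VP16LXRa replicates 5 to 8 left of VP16 replicates 1 to 4), as the log2 intensity minus the gene's mean over the 8 arrays. Cxcl1 and Cxcl14 are high in VP16LXRa replicate 5 and VP16 replicate 1. Cxcl13, Ccr6 and Cxcr5 are low in those tumors and also in VP16LXRa replicate 8 and VP16 replicate 3.

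Cxcl14 and Cxcl16 also had their highest values in VP16LXRa replicate 5 and next in VP16 replicate 1. Cxcl14, an epithelial and stromal chemokine, stood at 10.37, 6.96, 7.84 and 7.88 in VP16LXRa replicates 5 to 8, against 9.72, 7.29, 7.58 and 5.37 in VP16 replicates 1 to 4, a difference of 0.77 (SE 0.98, limma unadjusted p = 0.45). That difference was 0.0712 without VP16LXRa replicate 5, 0.0696 without VP16 replicate 4 and 1.52 without VP16 replicate 1. Its other tested probe followed the same order at both ends (8.79 in VP16LXRa replicate 5, 4.39 in VP16 replicate 4) and neither probe was detected in VP16 replicate 4. Cxcl16, made as a transmembrane protein and the ligand of CXCR6, stood at 10.66, 8.18, 9.10 and 8.30 in VP16LXRa tumors, against 9.34, 8.40, 8.09 and 8.64 in VP16 tumors. Its difference of 0.44 (SE 0.54) turned to -0.09 without VP16LXRa replicate 5. The receptor Cxcr6 was detected in VP16LXRa replicate 5 alone (5.45).

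Among the interferon-induced CXCR3 ligands, Cxcl9 and Cxcl10 were highest in VP16 replicate 4. Cxcl9 stood at 10.40, 5.87, 8.33 and 8.75 in VP16LXRa replicates 5 to 8, against 7.25, 7.65, 7.50 and 11.10 in VP16 replicates 1 to 4. The means were almost equal, 8.34 ± 1.87 in VP16LXRa and 8.37 ± 1.82 in VP16 tumors (SD, n = 4 each, limma difference -0.04, 95% interval -2.55 to 2.48). Cxcl10 stood at 7.07, 4.61, 5.77 and 6.36 in VP16LXRa tumors, against 6.25, 5.63, 5.72 and 8.40 in VP16 tumors. It was not detected in VP16LXRa replicate 6, where Cxcl9 was also lowest. Its difference of -0.55 (SE 0.71, limma unadjusted p = 0.46) was 0.09 without VP16 replicate 4, and that of Cxcl9 was 0.87 without that array. Cxcl11 was detected on no array, and Cxcr3, the receptor of all these ligands, was detected in VP16LXRa replicate 7 (5.57) and VP16 replicate 4 (6.14).

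The window of Cxcl10 is shown because it held both that NF-kB form and a form of the interferon-stimulated response element (GAAA, any 2 bases, GAAA). It lies at chr5:92348890-92349139 on the minus strand of the same build, with both stretches in capitals.
Cxcl10: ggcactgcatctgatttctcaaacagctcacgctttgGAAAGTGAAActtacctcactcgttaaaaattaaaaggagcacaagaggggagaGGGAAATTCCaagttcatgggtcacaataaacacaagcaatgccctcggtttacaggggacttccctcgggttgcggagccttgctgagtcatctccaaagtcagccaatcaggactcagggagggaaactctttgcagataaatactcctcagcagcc
The response element letters began 213 bases before the start site and the NF-kB letters 159. That form was held by 3 of the 38 member windows (Ccl19, Cxcl10 and Cxcl14), beside 2.98% of all windows. TATAAA was held by 9 of the 38, beside 12.4% of all windows, and the immunoglobulin kappa form of the NF-kB site (3 G, A, C, 3 T and 2 C) by 0 of the 38, beside 0.14%.

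Interferon response genes were highest in the same tumor. Ifng, which encodes interferon gamma, was detected in VP16 replicate 4 alone (6.44). Ifit2, an interferon-induced antiviral gene, stood at 8.64, 5.89, 7.26 and 8.40 in VP16LXRa tumors, against 7.60, 7.26, 8.16 and 11.32 in VP16 tumors. Of the 14 tested genes of the list, 0 were higher and 14 lower in VP16LXRa tumors with none past the threshold. Of all tested probes 50.4% were higher, and other lists also leaned to a single side. The 10 tested T cell markers were all higher and the 9 tested epithelial markers all lower. The summed intensity over the 19 interferon response genes on the array was 5558 to 17936 in VP16LXRa and 7863 to 38195 in VP16 tumors. Ifit1 and Iigp1 were detected on no array. The part of interferon in the Cxcl9 and Cxcl10 signal was not tested.

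Ccl3, Ccl4 and Ccl5, inflammatory CC ligands, did not share a single pattern. Ccl4 stood at 9.30, 5.01, 7.24 and 7.77 in VP16LXRa replicates 5 to 8, against 8.58, 5.58, 6.25 and 8.65 in VP16 replicates 1 to 4, and Ccl3 at 7.37, 4.72, 5.10 and 5.33 against 6.56, 5.11, 5.41 and 6.13. Both are made by activated macrophages and T cells, and both were high in VP16LXRa replicate 5 and in VP16 replicates 1 and 4. Ccl5, made mainly by T and NK cells, stood at 6.70, 6.41, 8.37 and 8.80 in VP16LXRa tumors, against 5.35, 7.87, 6.75 and 9.47 in VP16 tumors. It was lowest in VP16 replicate 1, the only array that did not detect it. Group differences were 0.06 (SE 1.01) for Ccl4, -0.17 (SE 0.58) for Ccl3 and 0.21 (SE 0.89) for Ccl5.

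The T cell marker Cd3e, a chain of the T cell receptor complex, stood at 7.22, 6.54, 7.68 and 6.93 in VP16LXRa tumors, against 5.35, 7.23, 6.04 and 7.81 in VP16 tumors, and like Ccl5 was lowest in VP16 replicate 1 and highest in VP16 replicate 4. Over the list of 14 T cell markers on the array the summed intensity was 1014 to 2580.4 in VP16LXRa and 837 to 2312 in VP16 tumors, with Cd8a detected on no array. The macrophage marker Csf1r stood at 8.73, 7.61, 8.22 and 7.33 in VP16LXRa tumors, against 7.85, 7.29, 7.24 and 7.55 in VP16 tumors. The 15 macrophage markers on the array summed to 4057 to 16698 in VP16LXRa and 2798 to 7391 in VP16 tumors, with Msr1 and Marco detected on no array. Their part in the signal of these ligands was not tested.

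The myeloid ligands Ccl6 and Ccl9, mouse chemokines that bind CCR1, were detected on all 8 arrays. Ccl6 stood at 6.91, 9.20, 8.02 and 8.01 in VP16LXRa tumors, against 7.47, 8.41, 8.39 and 9.32 in VP16 tumors, a difference of -0.36 (SE 0.52). It was lowest in VP16LXRa replicate 5 and next in VP16 replicate 1, the tumors with the highest Cxcl1. Ccl9 stood at 8.87, 8.94, 9.43 and 9.60 against 8.39, 9.09, 8.59 and 9.77, a difference of 0.25 (SE 0.32). Of the monocyte-attracting CCR2 ligands, Ccl7 was highest in VP16 replicate 1 (7.83) and VP16LXRa replicate 5 (7.04), lay between 5.41 and 6.63 elsewhere and differed by -0.05 (SE 0.57). Ccl2 was detected in VP16LXRa replicate 5 alone (5.58).

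The lymphoid chemokines followed another set of tumors. Cxcl13, which draws B cells into follicles, stood at 6.00, 9.41, 10.82 and 7.37 in VP16LXRa replicates 5 to 8, against 6.41, 10.51, 7.71 and 9.99 in VP16 replicates 1 to 4. Its receptor Cxcr5, at the brightest of 3 probes, stood at 4.70, 6.40, 8.38 and 4.41 against 4.38, 8.11, 4.64 and 6.86. VP16LXRa replicates 6 and 7 and VP16 replicates 2 and 4 were the tumors with high values of both, and the only ones in which Cxcr5 was detected. Ccr6, the CCL20 receptor of B cells and of some T cells, stood at 6.23, 7.87, 10.08 and 5.62 in VP16LXRa tumors, against 4.96, 9.51, 5.25 and 8.09 in VP16 tumors, and Ccl19, a ligand of CCR7 singled out after its values were seen, at 4.51, 6.50, 7.51 and 4.85 against 4.85, 6.66, 5.21 and 7.42. Both had their highest values in the same 4 tumors, in which alone Ccl19 was detected.

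Each group held 2 of these 4 tumors, and the group differences were small beside their errors. They were -0.25 (SE 1.21) for Cxcl13, -0.02 (SE 1.08) for Cxcr5, 0.50 (SE 1.26) for Ccr6 and -0.19 (SE 0.79) for Ccl19. Other probes gave 0.00 (SE 0.91) for Cxcr5 and 0.21 (SE 0.95) for Ccr6. The ligand of CCR6, Ccl20, was detected on no array. Ccr7, the receptor of CCL19 and CCL21, was detected in VP16 replicate 4 alone (5.76).

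**Figure D3:**
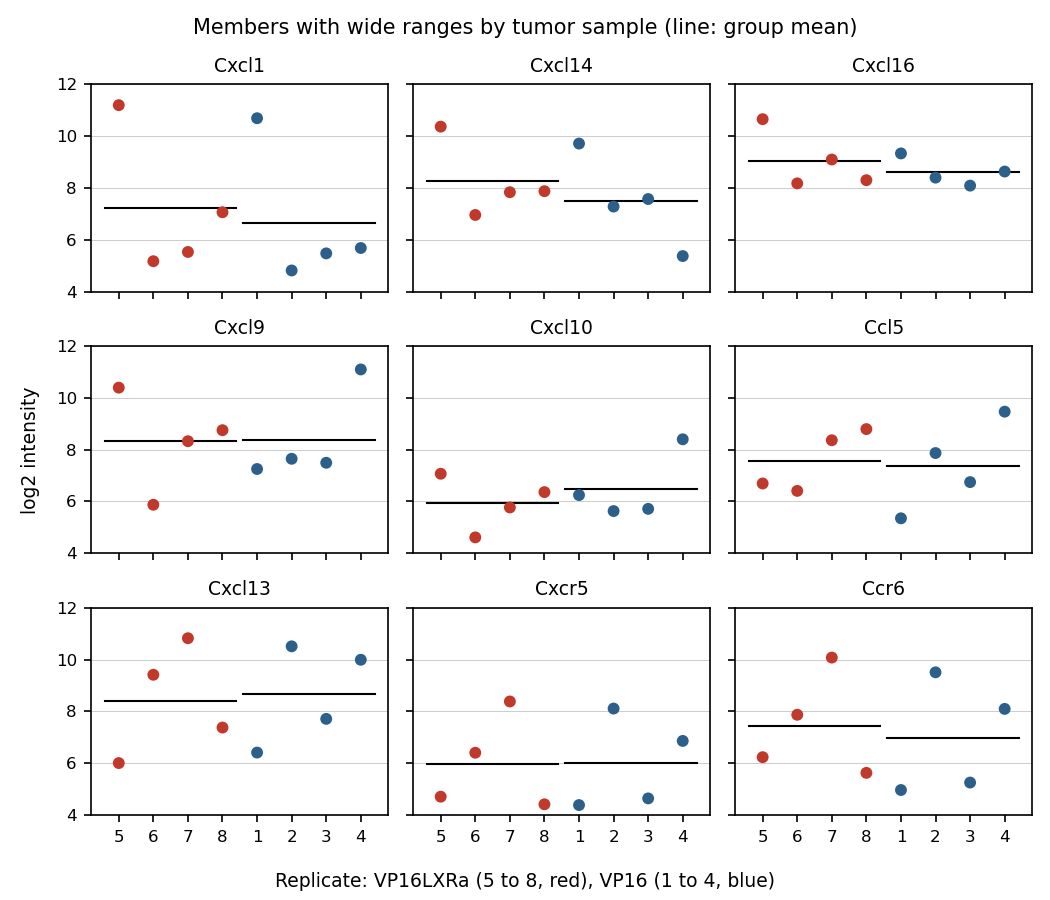
The log2 intensity (y axis) of 9 members in each tumor (x axis, VP16LXRa replicates 5 to 8 in red, VP16 replicates 1 to 4 in blue), with group means as lines. Cxcl1 is high in replicates 5 and 1, Cxcl9 in replicates 5 and 4, and Cxcl13, Cxcr5 and Ccr6 in replicates 6, 7, 2 and 4.

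The B cell genes Cd79b, Blk, Cd22, Fcrla and Fcer2a were each highest in VP16LXRa replicates 6 and 7 and VP16 replicates 2 and 4, as Cxcl13 was. Cd79b, a chain of the B cell receptor, stood at 5.19, 9.21, 10.70 and 7.06 in VP16LXRa tumors, against 5.50, 10.47, 6.76 and 9.45 in VP16 tumors. The plasma cell genes of the list did not follow those 4 tumors. Igj, the joining chain of secreted antibodies, stood at 7.30 in VP16LXRa replicate 8 and 7.65 in VP16 replicate 3, against 6.89 in VP16 replicate 4, and Tnfrsf17, the plasma cell receptor BCMA, at 6.54 and 6.70 against 6.14. Of the 10 B and plasma cell markers on the array, 0, 8, 9 and 4 were detected in VP16LXRa replicates 5 to 8, against 2, 9, 4 and 8 in VP16 replicates 1 to 4. Their summed intensity was 135 to 3717 in VP16LXRa and 136 to 3013 in VP16 tumors, and Pax5 was detected on no array. The part of lymphoid tissue in these values was not tested.

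**Figure D4:**
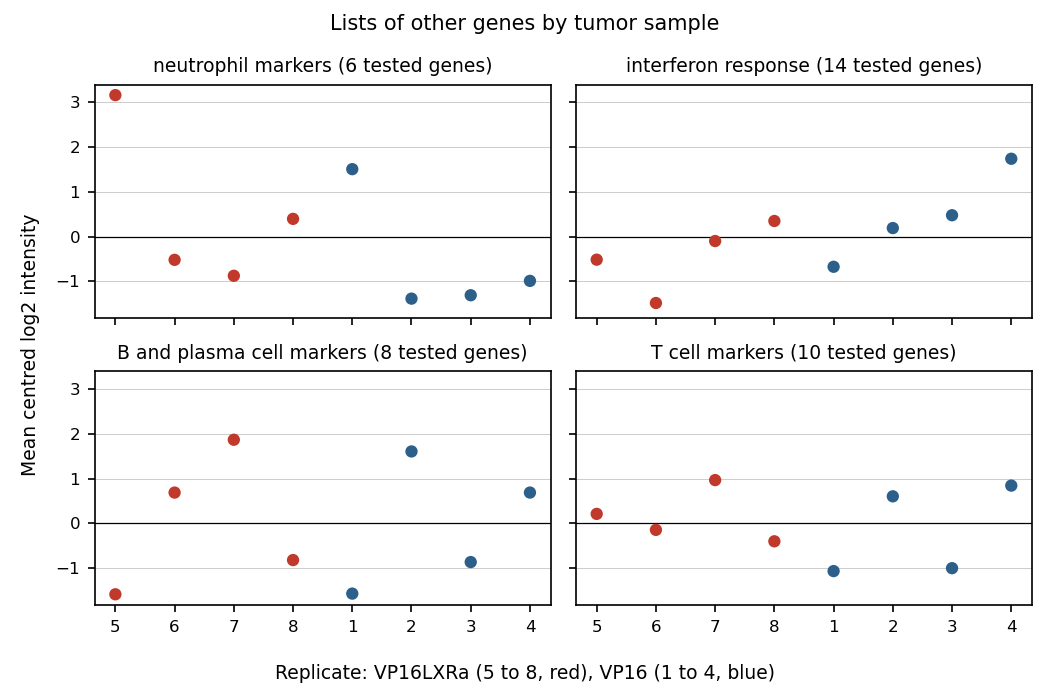
The mean centred log2 intensity (y axis) of the tested genes of 4 lists in each tumor (x axis, VP16LXRa replicates 5 to 8 in red, VP16 replicates 1 to 4 in blue). Neutrophil markers are highest in replicates 5 (3.16) and 1 (1.51), interferon response genes in replicate 4 (1.74), and B and plasma cell markers in replicates 7 (1.87) and 2 (1.61).

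Ccl21a, which guides T cells and dendritic cells into lymphoid tissue, did not follow these 4 tumors fully. It stood at 9.55, 11.26, 10.90 and 8.23 in VP16LXRa tumors, against 9.78, 10.51, 10.40 and 9.86 in VP16 tumors. The probe named Ccl21c stood at 8.21, 10.04, 9.15 and 6.61 against 8.34, 8.83, 8.70 and 9.08. The copies of Ccl21 are nearly identical, so that the probes may read each other's transcripts. Both were lowest in VP16LXRa replicate 8, and their differences of -0.16 (SE 0.61) and -0.23 (SE 0.64) were 0.43 and 0.40 without that array. Cxcr4, the receptor of CXCL12 on most white blood cells, stood at 7.16, 7.15, 7.74 and 5.78 in VP16LXRa tumors, against 7.02, 7.30, 6.49 and 7.32 in VP16 tumors, a difference of -0.07 (SE 0.40), and was likewise lowest in VP16LXRa replicate 8.

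Its ligand Cxcl12, a constitutive stromal chemokine, had a range of 1.52 log2 units at its brightest probe, against 1.96 for Cxcr4. Its other tested probes had ranges of 2.21 and 1.51. At its brightest probe it stood at 9.66, 9.89, 9.14 and 9.02 in VP16LXRa tumors, against 8.37, 9.77, 9.41 and 8.70 in VP16 tumors (difference 0.37, SE 0.34). A pair of other tested probes gave 0.08 (SE 0.53) and 0.13 (SE 0.34) and had their lowest values in VP16LXRa replicate 5 and VP16 replicate 1. The brightest probe was also lowest in VP16 replicate 1, but in VP16LXRa replicate 5 it was the second highest of its group. The last 2 of its 5 probes were detected on no array. Cxcr7, now named Ackr3, which takes up CXCL12, was detected in VP16LXRa replicate 5 alone (6.06).

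None of the ligands tied to epithelium and homing passed the test. Ccl25, which draws gut-homing T cells through CCR9, stood at 7.97, 7.05, 7.48 and 6.56 in VP16LXRa tumors, against 6.04, 6.99, 6.61 and 7.23 in VP16 tumors. Its difference was 0.55 (SE 0.36, limma unadjusted p = 0.16, adjusted p = 0.9999) and 0.50 (SE 0.33) at its other probe. It was 0.315 without VP16LXRa replicate 5, 0.322 without VP16 replicate 1 and 0.0889 without both. The groups overlapped, and VP16LXRa replicate 5 was highest and VP16 replicate 1 lowest. Ccl28, a mucosal ligand of CCR10, was not detected in VP16LXRa replicate 5 (4.69) and VP16 replicate 1 (5.13), stood between 6.21 and 6.81 in the other 6 tumors and differed by 0.01 (SE 0.52). Ccl27, now named Ccl27a, a skin-homing ligand of CCR10, stood at 7.58, 7.62, 7.52 and 7.08 in VP16LXRa tumors, against 7.38, 7.77, 7.86 and 7.06 in VP16 tumors (difference -0.07, SE 0.22). Among the 24 tested genes at their brightest probe it had the smallest range, 0.81 log2 units. Ccl11, the eosinophil chemokine eotaxin, lay between 6.58 and 8.18 in VP16LXRa and between 6.34 and 7.77 in VP16 tumors (difference 0.08, SE 0.43), and Ccl17, a ligand of CCR4, was detected in VP16LXRa replicate 5 (6.34) and VP16 replicate 3 (5.43) alone.

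The members were also described array by array. For each array a probe was counted where it lay at least 1 log2 unit from the median of the other 7 arrays. In VP16LXRa replicate 5, 10 of the 31 member probes were higher, beside 8.15% of all tested probes, and 10 were lower, beside 11.8%. In VP16LXRa replicate 6, 11 were higher (1.39% of all) and 5 lower (1.49%). In VP16LXRa replicate 7, 8 were higher (2.46%) and 0 lower (1.44%). In VP16LXRa replicate 8, 3 were higher (1.37%) and 9 lower (1.63%).

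Among the VP16 tumors, replicate 1 had 6 members higher, beside 5.21% of all tested probes, and 12 lower, beside 7.61%. Replicate 2 had 7 higher (2.19% of all) and 4 lower (0.968%), replicate 3 had 0 higher (1.89%) and 9 lower (2.25%), and replicate 4 had 11 higher (2.74%) and 3 lower (4.98%). Member probes share tumors and several share a gene, so the counts describe these 8 arrays and carry no test. The highest value of a gene fell in VP16LXRa replicate 5 for 7 of the 24 genes, beside 24.8% of all tested probes. It fell in VP16LXRa replicate 7 for 6 (10.4% of all), in VP16 replicate 4 for 5 (17.7%) and in VP16LXRa replicate 6 for 4 (10.7%). VP16LXRa replicate 8 and VP16 replicate 2 were highest for 0 genes, beside 7.56% and 7.4% of all tested probes.

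**Figure D5:**
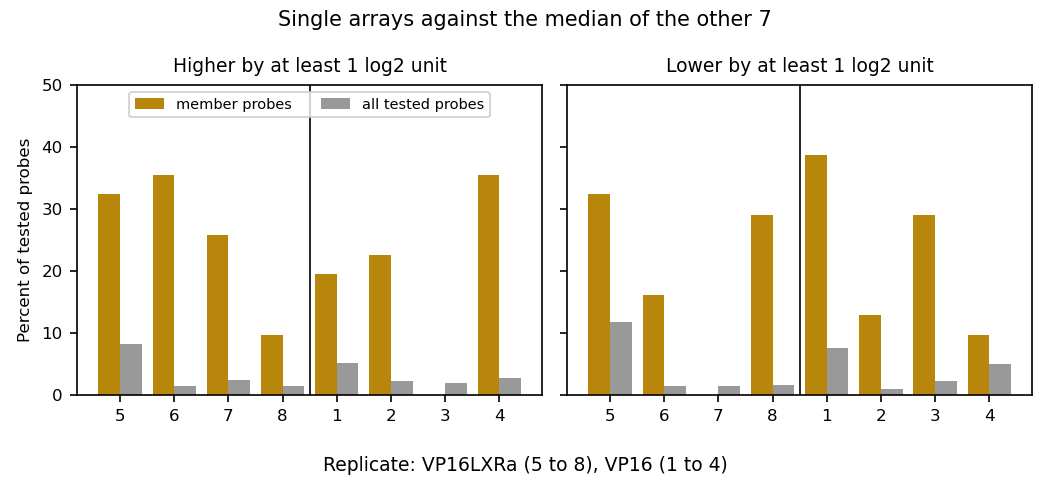
The percent of the 31 member probes and of all 11875 tested probes (y axis) at least 1 log2 unit above (left panel) or below (right panel) the median of the other 7 arrays, for each tumor (x axis, VP16LXRa replicates 5 to 8 left of VP16 replicates 1 to 4). Members reach 35.5% above in VP16LXRa replicate 6 and VP16 replicate 4 and 38.7% below in VP16 replicate 1.

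Other genes of the chemokine system gave no call either. Of 16 listed genes on the array beyond the members, 9 were tested, 7 of them higher and 2 lower in VP16LXRa tumors, with 0 past the adjusted threshold and 0 past an unadjusted p of 0.05 in limma. Cx3cl1, the membrane-bound chemokine fractalkine, stood at 8.05, 8.70, 9.08 and 8.61 in VP16LXRa tumors, against 8.36, 8.96, 8.55 and 7.95 in VP16 tumors (difference 0.15). Its receptor Cx3cr1, a marker of monocytes and gut macrophages, stood at 7.64, 6.57, 7.44 and 6.75 against 7.30, 6.14, 6.10 and 6.09 (difference 0.69, limma unadjusted p = 0.08), with VP16 replicate 1 alone overlapping the VP16LXRa tumors. Rarres2, the precursor of chemerin, differed by 0.69 (limma unadjusted p = 0.12). Of 21 listed genes of chemokine receptor signalling on the array 17 were tested, 9 higher and 8 lower, again with 0 past either threshold and a median difference of 0.01. Dpp4, the peptidase that trims and inactivates several chemokines, differed by -0.0023 and was lowest in VP16LXRa replicate 5 (7.58) and VP16 replicate 1 (8.15), against 8.73 to 9.56 in the other tumors.

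The members lie in clusters in the genome. In the RefSeq annotation of GRCm38.p6, used here for gene order only, 48 of the 49 genes had a place on a chromosome, 12 on chromosome 11, 10 on chromosome 5 and 10 on chromosome 9, and 22 had another member as the next protein-coding gene. Neighbours did not always vary together. Ccl3 and Ccl4 lie side by side and were high in the same tumors, while Ccl6, next to Ccl3, was low in VP16LXRa replicate 5, where Ccl3 was highest. Cxcl9 and Cxcl10, with Art3 between them, were both highest in VP16 replicate 4.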

How the data were processed

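Total RNA from 8 colon tumor samples was amplified, labelled with biotin and hybridised to Illumina BeadChips read with GenomeStudio (version not stated), per the labels' protocols and the submitters' processing notes. The authors deposited a non-normalized intensity per probe and array, per the file headers. A detection p-value per probe and array was deposited beside it, per the file headers. The authors' own processed intensities were also deposited, with the same quartiles on every array and some values below 0, and its steps are not stated. For the probe annotation, the genome build was not given in the sources used here.

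Intensities were corrected with normexp through the detection p-values, quantile normalized and set on the log2 scale, 16 being added first (neqc of limma 3.58.1 under R 4.3.3). All probes detected (p-value below 0.01) on 4 or more arrays were fitted by group with lmFit and eBayes, two-sided, and Benjamini-Hochberg adjusted over all 11875 tested probes at a threshold of 0.05. A gene was taken at its brightest tested probe. The number of arrays, 4 per group, limits the precision. The fit was tested on simulated data first.

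Genes named with a value on each array were the 6 tested members in each direction with the smallest unadjusted p, the 8 with the largest range over the arrays every member detected on all arrays of one group and none of the other (there was none) and every tested receptor. Ccl19, Ccl7, Ccl11, Ccl28 and the members detected on 1 to 3 arrays fell outside that rule, and their values, like those of the listed marker genes picked as examples, were chosen for printing after they were seen. The members and all 15 lists were chosen with earlier results of these data known. Thy1 stands in the T cell and fibroblast lists, and Ccl17 is a member and a dendritic cell marker. Alternatives were no background correction, the authors' processed values (offset of 32), median scaling, cyclic loess, an offset of 50, filters on detection, trended robust moderation, array weights, the mean of a gene's probes and arrays left out. All 49 member symbols were matched to RefSeq names in the annotation of GRCm38.p6. Results for some genes are not reported here.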

Additional observations from a re-analysis of the deposited data

Results flagged for a closer look

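For 20 named members the 4 values of each group were examined for a single array far from the other 3, by Dixon's ratio of the gap to the range at its 95% critical value. Of 40 such groups 2 passed, and chance passes about 1 in 20 where genes are not picked for their spread. Here 8 of the 20 were named for their wide range over the arrays, both that passed among them, so that rate does not apply. Cxcl1 stood at 10.7 in VP16 replicate 1, against 4.82 to 5.68 in the other VP16 tumors (ratio 0.852). Cxcl9 stood at 11.1 in VP16 replicate 4, against 7.25 to 7.65 in the other VP16 tumors (ratio 0.897).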

How the results depend on the processing

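Member probes past an adjusted p of 0.05 (limma) numbered 0 under every alternative run, and 1 at most passed an unadjusted p of 0.05, under array weights (Cxcl4 each time), without VP16 replicate 1 and without both VP16 replicate 1 and VP16LXRa replicate 5, beside 3.71%, 2.8% and 3.24% of all tested probes. Over all tested probes 1 passed, against 0 with no background correction, the authors' processed values, an offset of 50, the filter of all 8 arrays or no filter, 0 to 2 with 1 array left out, 4 with both arrays out and 200 at an unadjusted p under 0.05. Member deviations of single arrays by at least 1 numbered 56 higher and 52 lower, against 29 and 14 with no background correction, and 25 lower with an offset of 50. The members' median difference of 0.06 ran between -0.112 and 0.253 with 1 array left out. Of 20 named genes 16 changed sign in at least 1 setting, none past the threshold, and Cxcl4, Ccl25, Cxcl14 and Ccl9 kept theirs, though with 1 array left out the lowest difference was 0.0696 for Cxcl14 and 0.0557 for Ccl9, and Ccl25 was 0.0889 with both out. The Cxcl4 difference of 1.03 was 0.51 with no background correction, and 0.67 without VP16LXRa replicate 5 and 1.43 without VP16 replicate 1 were its extremes with 1 array left out. Low signal limits the receptors most, with 13 of 16 not tested. No paired analysis was possible because the replicate numbers 1 to 8 run on across the groups and pair no samples.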
